A study of Homo sapiens with 6 samples.

Results

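The genes described here are 52 regulators of cell division: cyclins, cyclin-dependent kinases (CDKs), CDK inhibitors, CDC25 phosphatases with WEE1 and the CKS proteins, pocket proteins, E2F transcription factors, and SKP2. They were taken by symbol from a list that holds no measured value, drawn up with earlier results of these data known, and all 52 were found among the 60675 Ensembl gene identifiers counted. The counts came from total RNA of PANC1, an established human pancreatic cancer line grown in DMEM with fetal bovine serum. The 3 wild-type (WT) libraries came from cells labelled as untreated. The 3 RARG-KO libraries came from cells transfected with a Cas9 plasmid and a pair of guide RNAs against RARG, which encodes the retinoic acid receptor gamma, followed by puromycin selection and expansion of single clones. The number of clones sampled is not given in the sources, so a property of a clone and the loss of RARG cannot be told apart.

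Cyclins bind and activate CDKs. Cyclin D with CDK4 or CDK6, and then cyclin E with CDK2, phosphorylate the pocket proteins RB1, RBL1 and RBL2, which releases E2F factors to switch on genes for DNA replication. Cyclins A and B with CDK1 and CDK2 then drive S phase and mitosis, while inhibitors of the CIP/KIP and INK4 families hold the kinases back. In most pancreatic ductal cancers the INK4 gene CDKN2A is lost, and PANC1 is known for a homozygous deletion at that locus.

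The totals were 29386408 to 30605114 counts for the WT libraries and 30115051 to 31608089 for the others. RARG itself (ENSG00000172819) had 39.1, 40.6 and 41.6 CPM (counts scaled to library size and composition) in WT, against 28.4, 24.1 and 28.5 CPM in RARG-KO. The groups did not overlap, and the mean of RARG-KO was 66.8% of that of WT (log2 fold change -0.58 ± 0.07, SE, edgeR quasi-likelihood test, adjusted p = 1.66e-07). A count over the whole gene does not show the deleted part, so this checks the labels only in part. Mitochondrially encoded genes took 3.87% to 4.0% of the WT counts, and 5.19% to 5.37% of those of RARG-KO. Epithelial markers were all detected, at a summed 2900 to 2965 CPM in WT and 1283 to 1361 CPM in RARG-KO. KRT8 and KRT18 carried most of that sum. Of the 6 markers 5 were lower in RARG-KO, KRT19 the most (log2 fold change -2.11). The adhesion gene CDH1 alone was higher, at 3.07 ± 0.664 CPM in WT and 12.7 ± 0.768 CPM in RARG-KO (SD, n = 3). Fibroblast markers summed to 103 to 108 CPM and 208 to 221 CPM, with DCN at 0 reads and only COL1A1 (102 to 214 CPM) and COL3A1 (3.68 to 2.09 CPM) above 1 CPM. Leukocyte markers summed to 4.91 to 5.49 CPM in WT and 1.11 to 2.26 CPM in RARG-KO, with only ITGAM above 1 CPM. Endothelial markers summed to 1.49 to 2.1 CPM and 5.31 to 5.93 CPM, with only KDR above 1 CPM. What these marker and mitochondrial levels contribute to the results was not tested.

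Of the 52 genes, 49 had enough reads to be tested. CCNA1, a cyclin A best known from germ cells, was not tested, with 20 reads over the WT libraries and 13 over RARG-KO, and neither were CDKN2A and CDKN2B, with none. Among the 49, 17 were higher and 26 lower in RARG-KO at an adjusted p below 0.05, while 6 did not pass: CCNB2, CCNC, CDK18, CDKN2D, CDC25C and E2F6. Calls were frequent in the whole data set as well. Over all 16996 tested genes 58.0% were called, 28.7% higher and 29.3% lower, against 87.8% of the tested cell cycle genes. The cell cycle genes were well expressed: 45 had a mean of at least 10 CPM, and of these 91.1% were called, against 69.7% of all 9683 tested genes at that level, a level chosen after the data had been seen. At that level 13.3% of them also reached 1.5-fold, against 16.1% of all genes. With a fold change of at least 1.5 also required, 1 gene was higher and 7 were lower. That is 16.3% of the genes, against 23.4% of all tested genes (10.3% higher and 13.2% lower). The median size of the log2 fold change was 0.29 over the 49 genes and 0.30 over all tested genes, and the signed medians were -0.12 and 0.01. Calls among these genes were thus frequent and mostly small, and 20 of the 43 called genes moved by less than 0.3 on the log2 scale. WT and RARG-KO libraries did not overlap in 42 of the 49 genes (85.7%), against 62.6% of all tested genes. In bulk RNA, fewer cells in a phase of the cycle and less RNA per cell cannot be told apart.

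**Figure D1:**
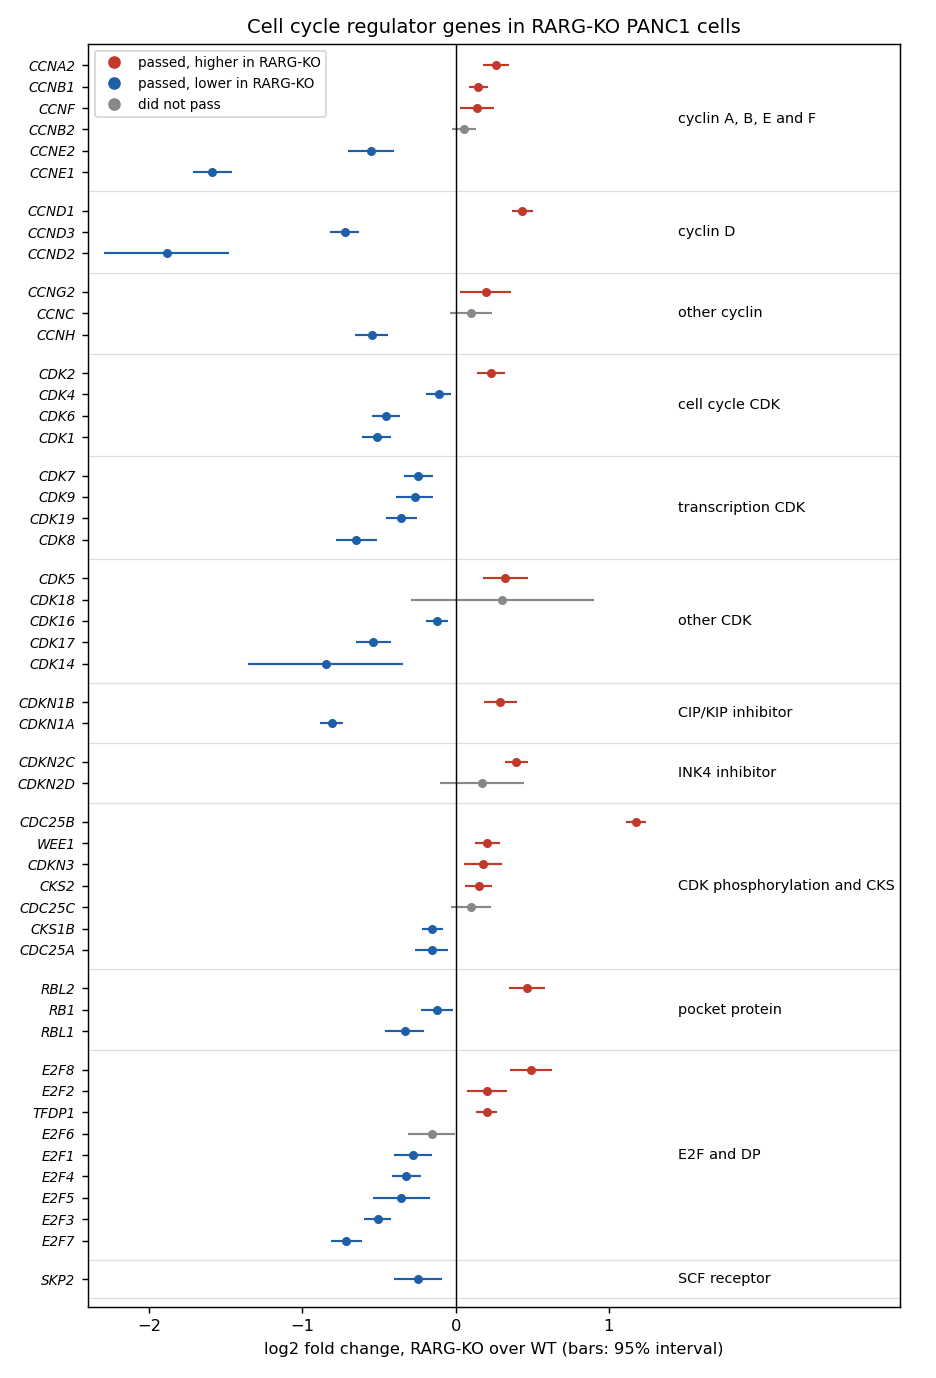
Log2 fold change of the 49 tested cell cycle genes (x axis, RARG-KO over WT, with 95% intervals), grouped by role on the y axis. Red points passed the test as higher, blue as lower and grey did not pass; CCND2 and CCNE1 lie farthest to the left and CDC25B farthest to the right.

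Among genes past the threshold with a log2 fold change of at least 0.5 in size, 12 were lower (15.1% of all tested genes met this rule) and 1 was higher (12.3% of all tested genes). The 12 were CCNE1, CCNE2, CCND2, CCND3, CCNH, CDK1, CDK8, CDK14, CDK17, CDKN1A, E2F3 and E2F7, and the higher one was CDC25B. They comprise activators of the cycle, an inhibitor (CDKN1A), a repressor (E2F7) and kinases that act outside the cycle.

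CCNE1 (ENSG00000105173, chr19:29811898-29824308 on GRCh38), a cyclin E that activates CDK2 at the entry into S phase, fell the most among well expressed members. It had 64.1, 68.3 and 60.8 CPM in the WT libraries and 21.3, 22.6 and 20.3 CPM in the RARG-KO libraries. The groups lay far apart, and the RARG-KO mean was 33.3% of that of WT (log2 fold change -1.59 ± 0.06, SE, adjusted p = 4.46e-15). Its partner gene CCNE2 had 16.5, 16.4 and 17.0 CPM in WT and 11.6, 11.2 and 11.3 CPM in RARG-KO. The groups were again apart, with a log2 fold change of -0.55 ± 0.07 (SE, adjusted p = 1.48e-06). CCNE2 shares 1629 exon bases with INTS8 on the other strand, which had 477% of the CCNE2 reads and a log2 fold change of -0.28. Without strand information the reads of this pair cannot be told apart.

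The remaining cyclins of the S and M phases changed little. CCNA2, the cyclin A of dividing cells, rose by 0.27 ± 0.04 on the log2 scale (SE, adjusted p = 1.15e-05), from 89.7 ± 2.87 to 108 ± 4.63 CPM (SD, n = 3). CCNA2 shares 254 exon bases with EXOSC9 on the other strand, which had 41.4% of its reads and a log2 fold change of 0.25. CCNB1, the main mitotic cyclin, rose by 0.15 ± 0.03 (SE, adjusted p = 0.000247). CCNB2, the second cyclin B, was at 87.5 ± 0.611 CPM in WT and 90.7 ± 0.590 CPM in RARG-KO (SD, n = 3) and did not pass (adjusted p = 0.24). CCNF, a cyclin that is a ubiquitin ligase receptor, passed at an adjusted p of 0.03, with a log2 fold change of 0.14. E-type cyclins were thus lower while cyclin A2 and cyclin B1 were higher in the same libraries.

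Among the D-type cyclins, which couple growth signals to CDK4 and CDK6, 1 gene rose and 2 fell. Over all tested genes 58.0% were called. CCND1 (ENSG00000110092, chr11:69641087-69654474) had 421, 389 and 412 CPM in WT and 547, 569 and 536 CPM in RARG-KO. It rose in every RARG-KO library above every WT library, by 0.43 ± 0.03 on the log2 scale (SE, adjusted p = 3.91e-10). CCND3 (ENSG00000112576, chr6:41934933-42050357) went the other way, with 80.7, 82.7 and 82.8 CPM in WT and 50.9, 47.3 and 50.6 CPM in RARG-KO. Its groups did not overlap, at a log2 fold change of -0.73 ± 0.04 (SE, adjusted p = 1.32e-11). CCND2 (ENSG00000118971, chr12:4273772-4305350) was a minor transcript, with 3.77, 3.14 and 3.26 CPM in WT and 0.906, 0.879 and 0.955 CPM in RARG-KO. The groups were apart, but rest on sums of 301 and 86 reads, and gave a log2 fold change of -1.89 ± 0.20 (SE, adjusted p = 4.80e-08).

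Because the genes differ in length, their shares were taken from CPM per kb of exon. CCND1 made up 85.8%, 84.6% and 85.3% of D-type cyclin transcripts in WT and 92.7%, 93.4% and 92.6% in RARG-KO. The summed level of the 3 genes was 98.95 ± 3.27 CPM per kb in WT and 122.6 ± 3.12 in RARG-KO (SD, n = 3). CCND1 thus outweighed the other two in every library, more so in RARG-KO. CCNE1 made up 87.0%, 87.8% and 86.0% of E-type cyclin transcripts in WT and 76.1%, 77.7% and 75.6% in RARG-KO, while the summed level was 29.04 ± 1.42 and 11.0 ± 0.433 CPM per kb (SD, n = 3). In RARG-KO CCNE2 therefore held a larger share of a smaller pool, as counted. The share and the sum include the CCNE2 reads, which cannot be told apart from those of INTS8 without strand information. These shares are descriptions with no test.

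**Figure D2:**
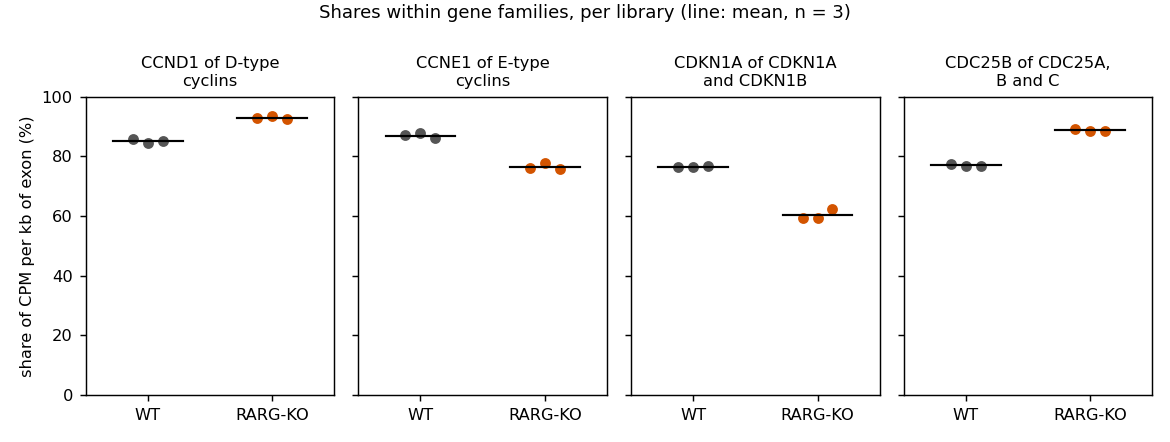
Share of CPM per kb of exon (y axis, percent) held by the named gene of each family in each library, with WT libraries in grey, RARG-KO libraries in orange and lines for the means. CCND1 and CDC25B held more of their families in RARG-KO, and CCNE1 and CDKN1A held less, with no overlap between the groups.

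Of the remaining cyclins, 1 rose, 1 fell and 1 did not pass (66.7% called, against 58.0% of all tested genes). CCNH, the cyclin of the CDK-activating kinase with CDK7, had 49.96, 50.4 and 53.4 CPM in WT and 34.9, 35.4 and 34.9 CPM in RARG-KO. All RARG-KO libraries were below all WT libraries, with a log2 fold change of -0.55 ± 0.05 (SE, adjusted p = 1.17e-08). CCNH shares 771 exon bases with RASA1 on the other strand, which had 157% of its reads and a log2 fold change of -0.17. CCNG2, a cyclin linked to cell cycle arrest, passed with 0.20 ± 0.08 (SE, adjusted p = 0.0387). CCNC, the cyclin of the Mediator kinases, overlapped between the groups, with 50.6 to 59.6 CPM in WT and 54.4 to 66.4 in RARG-KO.

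Of the 4 kinases of the cycle itself, 3 fell and 1 rose, where 58.0% of all tested genes were called. CDK1 (ENSG00000170312, chr10:60778331-60794852), the kinase of mitosis, had 119, 106 and 116 CPM in WT and 81.1, 81.9 and 75.5 CPM in RARG-KO. The groups were apart, at a log2 fold change of -0.52 ± 0.05 (SE, adjusted p = 4.70e-09). CDK1 fell while its partners CCNA2 and CCNB1 rose. CDK6 fell by 0.46 ± 0.04 on the log2 scale (SE, adjusted p = 1.64e-08), from 214 ± 7.91 to 156 ± 11.7 CPM (SD, n = 3), and CDK4 by 0.11 (adjusted p = 0.0197). The share of CDK6 in CDK4 and CDK6 together was 27.7% to 30.5% in WT and 22.6% to 26.9% in RARG-KO on the per-kb scale. CDK2, the partner of cyclins E and A, rose by 0.23 ± 0.04 on the log2 scale (SE, adjusted p = 0.000103), so CDK2 and the E-type cyclins changed in opposite directions.

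The 4 member CDKs that act on RNA polymerase II and its Mediator complex were all lower in RARG-KO. Over all tested genes 29.3% were lower. Of the member cyclins that pair with these kinases, CCNH was lower and CCNC did not pass. CDK8, a Mediator kinase, had 37.6, 37.7 and 40.9 CPM in WT and 22.9, 26.2 and 25.2 CPM in RARG-KO. It lay lower in all RARG-KO libraries, with a log2 fold change of -0.65 ± 0.06 (SE, adjusted p = 2.08e-08). Its paralogue CDK19 fell by 0.35 ± 0.05 on the log2 scale, CDK9, the kinase that releases paused polymerase, by 0.27 ± 0.06, and CDK7, the CDK-activating kinase, by 0.24 ± 0.05 (SE). Cyclin H and CDK7, which form 1 complex, were both lower, though CCNH shares exon bases with RASA1, as given above. MNAT1, a further part of that complex, did not pass, at 20.8 CPM in WT and 19.9 CPM in RARG-KO (log2 fold change -0.06, adjusted p = 0.43).

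Among the other CDKs, CDK17, a member of the PCTAIRE group, had 78.1, 71.9 and 83.3 CPM in WT and 54.7, 56.1 and 50.02 CPM in RARG-KO. Its groups did not overlap (log2 fold change -0.54 ± 0.05, SE, adjusted p = 3.79e-08). CDK14, a kinase that binds cyclin Y, was low, with 1.70, 1.53 and 1.60 CPM in WT and 1.03, 0.944 and 0.700 in RARG-KO. That was 143 reads against 84, and a log2 fold change of -0.85 ± 0.24 (SE, adjusted p = 0.00514). CDK14 shares 201 exon bases with CLDN12 on its own strand, which had 3511% of its reads and a log2 fold change of -0.07. CDK5, a kinase best known from neurons, rose by 0.33 ± 0.07 on the log2 scale, and SLC4A2 on the other strand, with 1702% of its reads, had a log2 fold change of 0.14. CDK16, another PCTAIRE kinase, had a log2 fold change of -0.12 (adjusted p = 0.00618), and CDK18, with sums of 77 and 101 reads, did not pass (adjusted p = 0.38).

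The CIP/KIP inhibitors went in opposite directions. CDKN1A (ENSG00000124762, chr6:36676460-36687339), which encodes p21, an inhibitor induced by p53 among others, had 148, 149 and 152 CPM in WT and 84.3, 84.4 and 87.8 CPM in RARG-KO. The RARG-KO mean was 57.1% of that of WT, with groups far apart (log2 fold change -0.81 ± 0.04, SE, adjusted p = 6.77e-14). CDKN1B, which encodes p27, had 42.4, 42.5 and 42.9 CPM in WT and 53.5, 53.6 and 49.1 CPM in RARG-KO. It was higher in all 3 RARG-KO libraries, by 0.29 ± 0.05 on the log2 scale (SE, adjusted p = 6.12e-05). Summed per kb, the pair went from 64.3 ± 0.867 to 46.6 ± 0.263 CPM per kb (SD, n = 3), and the share of CDKN1A from 76.4% to 60.2%.

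The INK4 inhibitors, which bind CDK4 and CDK6, were represented by 1 strongly expressed gene. CDKN2C, which encodes p18, had 89.5, 90.4 and 89.4 CPM in WT and 118, 116 and 121 CPM in RARG-KO. It rose without overlap, by 0.40 ± 0.04 on the log2 scale (SE, adjusted p = 6.77e-09). CDKN2D, which encodes p19, had 4.52 to 6.30 CPM in WT and 5.37 to 6.93 in RARG-KO, with overlapping groups and an adjusted p of 0.28.

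CDKN2A (ENSG00000147889, chr9:21967753-21995301), which encodes p16 and ARF, and CDKN2B (ENSG00000147883, chr9:22002903-22009363), which encodes p15, had 0 reads in each of the 6 libraries. At these depths 3 counts in a library, the level that a count of 0 allows, correspond to 0.0937 to 0.104 CPM, a bound on counting error only. Of the exon bases, 100% of the 4058 of CDKN2B and 92.1% of the 4329 of CDKN2A belong to no other annotated gene. The long noncoding RNA CDKN2B-AS1 also had 0 reads. MTAP, the methylthioadenosine phosphorylase gene next to CDKN2A, had 20 reads over the WT libraries and 22 over RARG-KO. No fold change can be given for a gene at 0 in both groups.

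The empty stretch had expressed genes on both sides. Of the 8 tested genes around it 3 rose and 2 fell, 62.5% called against 58.0% of all tested genes. Summed over libraries, KLHL9 had 3680 WT reads and 4287 RARG-KO reads, FOCAD 5240 and 5122, and DMRTA1 240 and 256. MIR31HG, the host RNA of a microRNA, had 797 and 1237 reads and rose by 0.55 ± 0.09 on the log2 scale (SE, adjusted p = 1.08e-05). The interferon gene IFNB1 fell from 113 to 17 reads and IFNE rose from 72 to 140, while IFNA1 had 3 and 20 reads, HACD4 64 and 73, MLLT3 130 and 95, and ELAVL2 0 and 1. Between the end of MIR31HG and the start of DMRTA1 (chr9:21559670-22446840, 887 kb) lie 18 annotated genes, of which 14 had no read in any library. Besides MTAP, the exceptions were the pseudogenes KHSRPP1 (1898 and 2708 reads) and TUBB8P1 (8 and 20) and the 7SL copy RN7SL151P (459 and 651). These 3 are copies of genes elsewhere, so the origin of their reads is uncertain.

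**Figure D3:**
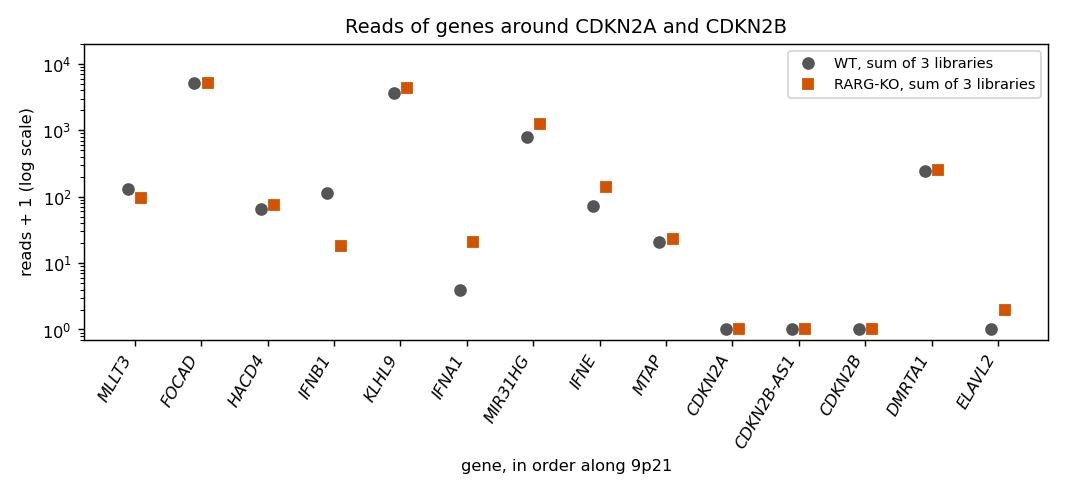
Reads per gene around CDKN2A and CDKN2B (y axis, reads plus 1 on a log scale), summed over the 3 WT libraries (grey circles) and the 3 RARG-KO libraries (orange squares), with genes in chromosomal order on the x axis. CDKN2A, CDKN2B-AS1 and CDKN2B are at 0 reads in both groups, between MTAP with 20 and 22 reads and DMRTA1 with 240 and 256.

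CDC25B (ENSG00000101224, chr20:3786772-3806121), a phosphatase that activates CDK1 at the entry into mitosis, showed the only rise above 1.5-fold among the members. It had 275, 272 and 271 CPM in WT and 624, 597 and 628 CPM in RARG-KO. Every RARG-KO library was above every WT library and the ratio of the means was 2.26 (log2 fold change 1.18 ± 0.03, SE, adjusted p = 6.75e-18). CDC25A, the phosphatase of S phase entry, fell slightly (log2 fold change -0.16 ± 0.05, SE, adjusted p = 0.0139), and CDC25C, the last of the family, did not pass (adjusted p = 0.17). CDC25C shares 293 exon bases with FAM53C on the other strand, which had 371% of its reads and a log2 fold change of 0.10. CDC25B made up 76.9% ± 0.303 of the CDC25 transcripts in WT and 88.7% ± 0.285 in RARG-KO on the per-kb scale (SD, n = 3). The opposing kinase WEE1 rose by 0.21 ± 0.04 on the log2 scale (SE, adjusted p = 8.74e-05). CKS1B and CKS2, small proteins that bind CDKs, moved in opposite directions, at -0.15 ± 0.03 and 0.15 ± 0.04 (SE). CDKN3, a phosphatase of CDK2, rose by 0.18 ± 0.06 (SE, adjusted p = 0.0155).

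**Figure D4:**
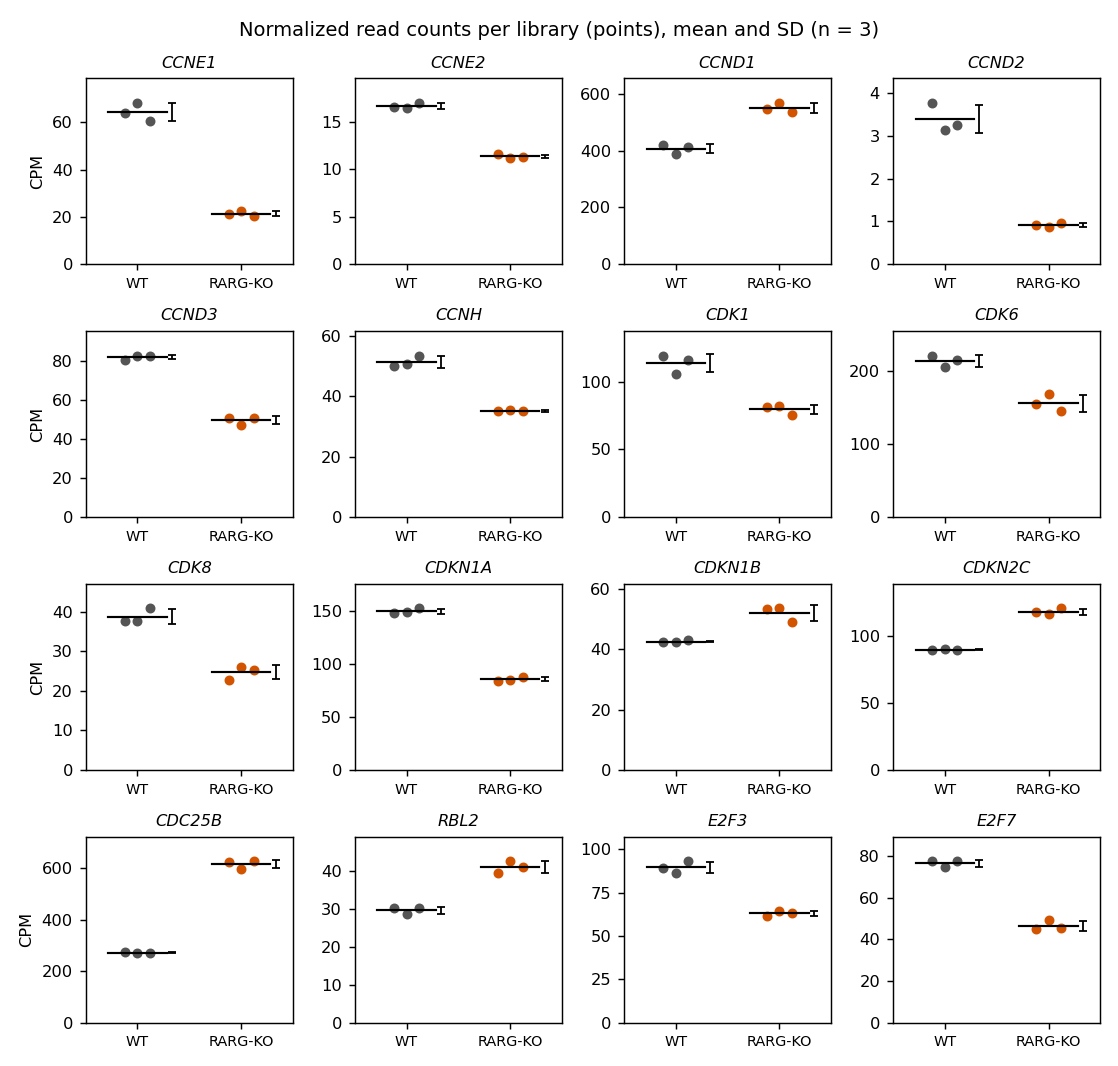
Level of selected members in each library (y axis, CPM, linear from 0), with WT libraries in grey and RARG-KO libraries in orange; lines are means and bars at the side are SD with n = 3. In every gene shown the 3 WT points are clear of the 3 RARG-KO points, lower in RARG-KO for CCNE1 or CDKN1A and higher for CDC25B or RBL2. Members with overlapping groups, such as RB1 and SKP2, are not shown, and 62.6% of all tested genes had groups that did not overlap.

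Among the pocket proteins, RBL2, which encodes p130 and is most abundant in resting cells, had 30.1, 28.6 and 30.2 CPM in WT and 39.4, 42.5 and 40.9 CPM in RARG-KO. It was higher in every RARG-KO library, by 0.47 ± 0.06 on the log2 scale (SE, adjusted p = 4.37e-07). RBL2 shares 610 exon bases with AKTIP on the other strand, which had 81.7% of its reads and a log2 fold change of 0.26. RBL1, which encodes p107, fell by 0.33 ± 0.06 on the log2 scale (SE, adjusted p = 9.49e-05). RB1 itself had 72.4 to 74.9 CPM in WT and 63.3 to 73.6 CPM in RARG-KO, and the groups overlapped although the test passed (adjusted p = 0.0461). The summed level of the 3 genes overlapped between the groups, at 20.95 ± 0.424 and 20.5 ± 1.19 CPM per kb (SD, n = 3), while the share of RBL1 went from 26.2% to 21.3%.

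Of the 9 E2F and DP genes, 3 rose, 5 fell and E2F6, a repressor, did not pass. That was 88.9% called, against 58.0% of all tested genes. E2F3, an activator, had 89.2, 86.5 and 93.0 CPM in WT and 61.5, 64.4 and 63.2 CPM in RARG-KO. It lay lower in all RARG-KO libraries (log2 fold change -0.51 ± 0.04, SE, adjusted p = 1.50e-09). E2F7 (ENSG00000165891, chr12:77021247-77065580), an atypical E2F that represses E2F targets without a DP partner, had 77.3, 74.5 and 77.4 CPM in WT and 45.1, 49.4 and 45.3 CPM in RARG-KO. It was the most changed gene of the family, without overlap (log2 fold change -0.71 ± 0.05, SE, adjusted p = 5.08e-11). The second atypical factor, E2F8, went up, with 26.9, 24.9 and 24.6 CPM in WT and 37.5, 37.4 and 32.6 CPM in RARG-KO. Its log2 fold change was 0.49 ± 0.07 (SE, adjusted p = 1.83e-06), so the atypical pair moved in opposite directions. The activators E2F1 and E2F2 also differed in sign, at -0.28 ± 0.06 and 0.21 ± 0.06 (SE). The repressors E2F4 and E2F5, which bind RBL1 and RBL2, fell by 0.32 ± 0.05 and 0.35 ± 0.09 on the log2 scale (SE), and TFDP1, the DP partner, rose by 0.20 ± 0.03 (SE). E2F5 shares 969 exon bases with C8orf59 on the other strand, which had 118% of its reads and a log2 fold change of -0.66. SKP2, the receptor of the ubiquitin ligase that degrades p27, had 26.4, 23.3 and 25.4 CPM in WT and 19.3, 23.4 and 20.6 CPM in RARG-KO. The groups overlapped, and the test passed (log2 fold change -0.25 ± 0.07, SE, adjusted p = 0.00748).

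Many of these genes are themselves classical targets of E2F or of the MuvB complex, which binds the cell cycle homology region (CHR) of late genes. Promoter windows from 250 bases before to 50 after the start were taken from RefSeq (GRCh38.p14) and were given for 45 of the 52 genes, in 67 windows. E2F words were searched on both strands with overlaps allowed, namely TTCGCGC, then the word TTGGCGC, further the word TTCCCGC and last the word TTGCCGC. They were found in 25.4% of the member windows and in 13.0% of 35116 windows of the same length. CHR words (TTTGAA as one form, TTCGAA as the other, both strands) were found in 20.9% of the member windows and in 16.4% of all. E2F words occurred in 5 of 13 genes that rose, 8 of 23 that fell and 2 of 6 that did not pass, and CHR words in 5, 4 and 3 of them. A match is a description and not a bound site. For RB1 and CDK14, counted among the 23, every window given lay far inside the annotated gene. The RB1 window was chr13:48476200-48476499, in a gene that starts at 48303726. The annotated gene starts of these genes were thus not searched. The promoter stretches below are shown for some of the genes with E2F words that moved in either direction. The E2F words of CDK16 and CDK19, which fell, and of CCNB1, TFDP1 and CDC25B, which rose, are not shown. Matches are in capitals, and each stretch is read 5′ to 3′ on the strand of its gene, with its place on GRCh38.p14.
E2F1, fell, chr20:33686386-33686445 (- strand): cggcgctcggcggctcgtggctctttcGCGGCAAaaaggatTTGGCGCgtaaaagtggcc
E2F3, fell, chr6:20401819-20401878 (+ strand): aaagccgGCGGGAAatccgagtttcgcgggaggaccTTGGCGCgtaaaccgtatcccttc
E2F7, fell, chr12:77065685-77065754 (- strand): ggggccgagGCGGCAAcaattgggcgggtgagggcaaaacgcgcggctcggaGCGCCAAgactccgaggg
RBL1, fell, chr20:37095998-37096057 (- strand): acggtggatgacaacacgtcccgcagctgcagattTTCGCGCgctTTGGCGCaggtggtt
CDK1, fell, chr10:60778288-60778367 (+ strand): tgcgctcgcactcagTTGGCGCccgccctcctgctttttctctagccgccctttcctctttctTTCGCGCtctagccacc
CDC25A, fell, chr3:48188418-48188477 (- strand): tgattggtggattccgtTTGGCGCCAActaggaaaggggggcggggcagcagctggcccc
E2F2, rose, chr1:23531234-23531293 (- strand): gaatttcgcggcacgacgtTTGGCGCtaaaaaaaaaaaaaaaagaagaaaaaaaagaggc
CDKN2C, rose, chr1:50968566-50968705 (+ strand): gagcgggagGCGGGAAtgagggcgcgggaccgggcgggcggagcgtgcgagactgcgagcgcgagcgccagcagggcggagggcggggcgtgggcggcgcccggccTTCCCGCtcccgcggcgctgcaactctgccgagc

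Among the stretches shown, E2F1, E2F2, E2F3, CDC25A, RBL1 and CDK1 carried the same word, TTGGCGC, and so did E2F7 on the other strand. Of these genes E2F2 rose and the rest fell, but the stretches shown were picked, so this split is not a result. Over all members with a window, E2F words occurred in 5 of 13 genes that rose and 8 of 23 that fell. The CDC25A match is a palindrome, read as TTGGCGC on either strand with shared bases. Some genes with CHR words close before the start are shown next, again with the match in capitals. Of these, CCNB2 did not pass the test, CKS1B fell and CKS2 and CDC25B rose. CDK1, which fell, and CDC25C, which did not pass, also had CHR words close before a start, not shown here.
CCNB2, not passed, chr15:59105086-59105145 (+ strand): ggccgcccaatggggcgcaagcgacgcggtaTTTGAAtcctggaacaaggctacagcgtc
CKS1B, fell, chr1:154974621-154974680 (+ strand): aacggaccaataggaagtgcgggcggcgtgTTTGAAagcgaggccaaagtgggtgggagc
CKS2, rose, chr9:89311135-89311194 (+ strand): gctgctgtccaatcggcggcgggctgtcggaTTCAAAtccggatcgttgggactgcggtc
CDC25B, rose, chr20:3796250-3796309 (+ strand): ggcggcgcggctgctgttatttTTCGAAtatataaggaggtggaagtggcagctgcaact

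The window of CCNE1, the most reduced of the well expressed members, held none of these words in the 120 bases before its start, which says nothing of the factors that bind there.
CCNE1, fell, chr19:29811871-29811990 (+ strand): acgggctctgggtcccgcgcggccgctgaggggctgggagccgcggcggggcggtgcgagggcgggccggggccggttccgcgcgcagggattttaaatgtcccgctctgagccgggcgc

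The change of a gene was also set against that of its neighbours, the 20 nearest tested protein-coding genes on each side along the chromosome. The median log2 fold change of the neighbours exceeded 0.25 in size for 13 of the 49 members. Around CDK1 it was -0.69, with 32 of 40 neighbours lower, and around CCNE2 it was -0.54, with 39 of 40 lower. The neighbours of SKP2 had a median of -0.60, those of E2F5 -0.56, those of RBL1 -0.38 and those of E2F1 -0.34. Around CDC25B it was 0.44, with 31 of 40 higher, and around E2F8 0.29, with 35 of 40 higher. Members with a strong shift in their own region thus include CDK1, CCNE2 and both E2F1 and RBL1 on chromosome 20.

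With the median of the neighbours removed from each gene, 32 of the 43 called members kept their direction and their call, 5 kept the direction without passing and 6 took the other sign. In that fit 35 of the 49 members were called, 17 higher and 18 lower, against 54.1% of all tested genes. CCNE1 stood at -1.33, CCND2 at -1.93, CCND3 at -0.84, CDKN1A at -0.78, E2F3 at -0.69 and E2F7 at -0.57 on the log2 scale, each past the threshold. CDC25B was at 0.74 in place of 1.18, CDK8 at -0.38 in place of -0.65, and E2F8 at 0.20 in place of 0.49. CDC25A went from -0.16 to -0.61, CDK19 from -0.35 to -0.62, CDK9 from -0.27 to -0.45, CCNG2 from 0.20 to 0.38, CKS1B from -0.15 to -0.24, CKS2 from 0.15 to 0.33 and CDK2 from 0.23 to 0.13, each still past the threshold. CCNE2 lay close to the median of its neighbours and lost its call (-0.02, adjusted p = 0.86). CCNF, CDK4, RB1 and E2F2 lost their call as well (adjusted p = 0.18, 0.44, 0.37 and 0.09). The median was taken as fixed, so the SE and adjusted p of this fit leave out the spread among the neighbours. CDK1 lay above the median of its neighbours (0.17 ± 0.05, SE, adjusted p = 0.00354), as did SKP2 (0.35 ± 0.07, SE, adjusted p = 0.0005). CDK16, RBL1, E2F1 and E2F5 also took the positive sign (0.02, 0.05, 0.06 and 0.21) without passing. CCNC, not called in the main fit, passed as lower in the regional fit (-0.17, adjusted p = 0.0386). The directions given above for CDK1, SKP2, E2F1, E2F5, RBL1 and CDK16 therefore depend on the reference, all genes or the region. So does the call of CCNE2, which kept its sign.

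**Figure D5:**
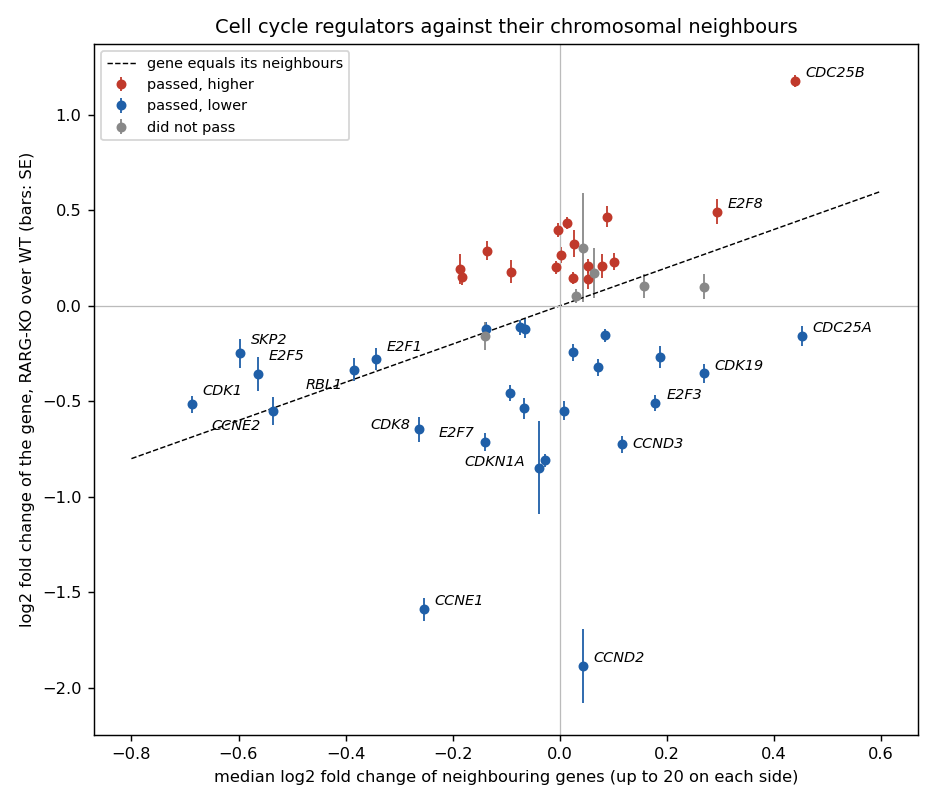
Log2 fold change of each tested member (y axis) against the median log2 fold change of up to 40 nearest tested protein-coding genes (x axis), with the line of equality. CCNE2 lies close to the line and CDK1 and SKP2 above it, while CCNE1, CCND2, CCND3 and CDKN1A lie far below it.

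Other genes of the pathway were counted from lists that do not include the members. Of 27 further cyclins and CDKs, 6 were higher and 10 lower, 59.3% called against 58.0% of all tested genes. CDK5R1, the activator of CDK5, rose by 0.68 ± 0.10 on the log2 scale (SE, adjusted p = 6.24e-06). CCNJL, a cyclin J relative, fell by 1.13 ± 0.06 (SE, adjusted p = 2.75e-12), and CDK12, an elongation kinase, by 0.35 ± 0.03 (SE, adjusted p = 1.23e-08). Of 11 further genes of CDK inhibition, the WEE1 family and DP, 3 rose and 4 fell (63.6% called). CABLES1, a CDK-binding adaptor, rose from 36.3 ± 1.88 to 77.1 ± 1.19 CPM (SD, n = 3), while its relative CABLES2 fell from 18.9 ± 0.666 to 8.18 ± 0.988 CPM (SD, n = 3). CDK5RAP3, a CDK5 activator-binding protein, rose by 0.25 and CDK2AP2, a CDK2-associated protein, fell by 0.66 on the log2 scale. With the neighbours' median removed, CDK5RAP3 did not pass (0.0098, adjusted p = 0.86), and CDK5R1 stood at 0.30 and CABLES2 at -0.71 in place of -1.20.

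Of 8 genes of the MuvB core, the MYB family and FOXM1, 1 rose and 4 fell (62.5% called). FOXM1, the activator of mitotic genes, rose by 0.27 ± 0.04 on the log2 scale (SE, adjusted p = 1.02e-05). MYBL1, a MYB factor best known from germ cells, fell by 0.95 ± 0.05 (SE, adjusted p = 1.46e-12) and MYBL2, a partner of MuvB, by 0.57 ± 0.05 (SE, adjusted p = 1.51e-08). With the neighbours' median removed, MYBL2 stood at 0.02 (adjusted p = 0.83) and MYBL1 at -0.33. Of 30 E2F target genes of replication and nucleotide synthesis, 13 rose, 6 fell and 11 did not pass, 63.3% called against 58.0% of all tested genes, and 0 reached 1.5-fold, against 23.4%. Their median log2 fold change was 0.10, against 0.01 over all tested genes. PCNA, the replication clamp, rose by 0.44 ± 0.03 and RRM1, a ribonucleotide reductase subunit, by 0.37 ± 0.03 on the log2 scale (SE). The helicase subunits MCM4 and MCM2 fell by 0.31 ± 0.03 and 0.29 ± 0.04 (SE). With the neighbours' median removed, PCNA was at 0.01 (adjusted p = 0.91), MCM4 at -0.03 (adjusted p = 0.39), and MCM2 at 0.26 with the other sign. Of 17 ubiquitin ligase genes acting on cyclins, CDK inhibitors and E2Fs, 7 rose and 7 fell (82.4% called). AMBRA1, the receptor for D-type cyclins, rose by 0.60 ± 0.05 (SE) and DDB1, a CUL4 adaptor, by 0.21 ± 0.03 (SE), while BTRC, an SCF receptor, fell by 0.70 ± 0.05 (SE) and FBXW7, the receptor for cyclin E, by 0.47 ± 0.08 (SE). With the neighbours' median removed AMBRA1 did not pass (0.10, adjusted p = 0.12) and BTRC stood at -0.18 (adjusted p = 0.00548). CCND1 and AMBRA1 were thus both higher, and CCNE1 and FBXW7 both lower.

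Some of the smaller calls did not hold when a single library was left out. Without RARG-KO replicate 1, SKP2 had an adjusted p of 0.0603 and CDC25A 0.0520, and CDC25A had 0.0615 when RARG-KO replicate 2 was left out. CDK4 had 0.0696 when RARG-KO replicate 2 was left out and 0.114 when WT replicate 2 was. CDKN3 had 0.0643 when WT replicate 2 was left out and 0.0538 when RARG-KO replicate 3 was. CCNF lost its call without WT replicate 1 or 2 or RARG-KO replicate 1 or 3 (adjusted p = 0.0628 to 0.125), and CCNG2 without WT replicate 1 or 3 or RARG-KO replicate 1 or 3 (adjusted p = 0.0722 to 0.125). RB1 kept its call only without RARG-KO replicate 2, and had an adjusted p of 0.0539 to 0.308 without any other library. CCNC passed without RARG-KO replicate 3 (adjusted p = 0.0303) and E2F6 without WT replicate 3 or RARG-KO replicate 2 (adjusted p = 0.0185 and 0.0254).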

How the data were processed

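Gene counts of 6 RNA-seq libraries, whole numbers without normalization, were used as deposited by the authors. HISAT2 2.1.0, Bowtie2 2.2.3, featureCounts and DESeq2, with builds GRCh38 and hg38, are named per the submitters' processing notes. Settings, annotation and use of strand are not given in the sources. Libraries were prepared from total RNA and read as paired ends, per the labels' protocols.

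RARG-KO was compared with WT by the quasi-likelihood test of edgeR 4.0.16 (R 4.3.3) on all 6 libraries, with TMM factors, the default filterByExpr filter, no term but the group, and Benjamini-Hochberg adjustment over 16996 genes, which held 99.9% of counts. An adjusted p below 0.05 was called. CPM are TMM-normalized, and SE is the absolute log2 fold change over the root of F. Levels are compared between genes per kb of the union of exons of GENCODE release 29, which also gave positions. The median of 20 neighbours on each side was removed through an offset taken as fixed, without the spread among the neighbours. The fit was tested on simulated data. Alternatives were other factors, filters, DESeq2 1.42.0, a replicate block, single libraries left out, a fold of 1.5 and raw reads for shares.

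The members and the gene lists were chosen with earlier results of these data known. Values in every library are given for members called with a log2 fold change of at least 0.5 in size, the most changed of each role, CDKN2A and CDKN2B. CCND1, CDKN1B, E2F8 and others named with such values were added after their values were seen. Other lists name up to 2 rising and 2 falling genes with the smallest adjusted p, besides MNAT1, added after its value was seen. A gene that this rule names is not reported here. Counts of replicates differed by more than sampling noise (chi-square per degree of freedom 2.18 to 5.59). No label says that replicates were separate cultures, so p-values reflect only how these samples vary, and that variation may be technical.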

Additional observations from a re-analysis of the deposited data

How the results depend on the processing

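Of the 49 tested members, 31 kept their direction and side of the threshold under all 13 alternative fits and 18 did not. The members called higher numbered 15 to 18 and those called lower 18 to 26 over the other normalizations, filters, tests and left-out libraries and with the neighbours' median removed. With a fold of at least 1.5 required, 1745 genes were higher and 2237 lower, and 1 member was higher and 7 were lower. Leaving out single libraries gave 15 to 17 members higher and 23 to 26 lower, and 4431 to 4916 genes higher and 4648 to 5042 lower. With the neighbours' median removed, the sign changed for CCNC (-0.17), CDC25C (-0.056), CDK1 (0.17), CDK16 (0.017), RBL1 (0.051), E2F1 (0.065), E2F5 (0.21) and SKP2 (0.35), since the shift of the region is subtracted. Upper-quartile factors gave 18 and 22 and moved the median of all genes by 0.038, the most of any scaling. With them CDK4, CDK16, CDC25A and RB1 no longer passed (adjusted p = 0.12, 0.0529, 0.0581 and 0.16) and CCNB2 did (0.0453). DESeq2 gave 15 and 25, without CCNF, CCNG2 and RB1 (adjusted p = 0.0757, 0.18 and 0.0775). Taken from raw reads, CCND1 held 82.6% of WT and 91.6% of RARG-KO reads of D-type cyclins, and CCNE1 79.4% and 65.3% of those of E-type cyclins, since longer genes then weigh more. Without 8 members that share exon bases with a gene of over 10% of their reads, 14 of 41 were higher and 22 lower, a count chosen after seeing the data.

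The replicate numbers did not pair the samples: deviations of same-numbered libraries correlated at 0.01, -0.05 and -0.01. The fit with a replicate block called 4546 genes higher and 4712 lower, and 15 members higher and 24 lower, with CCNF, CCNG2, CDK4 and RB1 no longer past the threshold. Members with few reads, CCND2, CDK14 and CDK18, are the least precise, and below 3 counts a library nothing could be measured.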
